A study of Xenopus laevis with 18 samples.

Results

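The Mix and Bix genes encode paired-type homeodomain transcription factors of the Xenopus mesendoderm, the tissue that gives rise to both mesoderm and endoderm. They were taken here as every probe set whose single gene symbol in the array annotation was mix1, mixer or bix1, with or without a number and a homeolog suffix. The rule found 8 probe sets, 1 for each of 8 genes, among 32635 probe sets on the array and 11303 genes with 1 symbol. They are mix1.L (Xl2.8190.1.S1_at), mix1.S (Xl2.824.1.S1_at), mixer.L (Xl2.291.1.S1_at), mixer.S (Xl2.16875.1.S1_at), bix1.1.L (Xl2.398.1.A1_at), bix1.2.S (Xl2.397.1.S1_at), bix1.3.L (Xl2.298.1.S1_at) and bix1.3.S (Xl2.399.1.A1_at). The suffixes .L and .S mark the gene copies of the subgenomes of Xenopus laevis. In the reference gene table all 8 had the same symbol, and older names are listed there: mix.1 for the mix1 genes, bix3 for bix1.1.L, milk and bix2 for bix1.2.S, and bix4 for both bix1.3 genes. Whether the probes of one gene also bind RNA of a near-identical copy was not tested, since probe sequences were not analysed here.

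Mix1 was found as a gene switched on directly by activin, and the family as a whole responds to Nodal and activin signals and to the maternal T-box factor VegT. Mixer promotes endoderm formation, and Mixer and the milk product bind activated Smad2 and bring it to target genes such as goosecoid. The Bix genes were found as targets of T-box factors, and their products act in mesoderm and endoderm formation in the vegetal and marginal cells. Paired-type homeodomains bind DNA as dimers, and members of the family can dimerise with each other. Expression of the family is known to be brief and to belong to early development. The samples begin at early gastrula, so the onset of expression was not measured.

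The study asked which genes of the lateral mesoderm respond to retinoic acid (RA), a signal that cyp26 enzymes break down. Embryos received GFP mRNA (the labelled control) or GFP and cyp26 mRNA (labelled RA-depleted) in all 4 blastomeres at the 4-cell stage, so both arms carry GFP. Explants of the lateral marginal zone, the equatorial region that forms lateral mesoderm, were cut at early gastrula and collected after 1 h or 3 h at 20 °C or after a night at 14 °C. The samples are labelled early gastrula, mid-gastrula and early neurula, and the labels do not pair these stages with the collection times. Each of the 6 groups had 3 arrays, called biological replicates in the labels, which do not say how many embryos or explants each holds, so the p-values measure the spread between these samples.

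Values are RMA log2 intensities, which give relative RNA levels for a probe set and allow no comparison of levels between probe sets. Over all probe sets the median value was 5.85 to 5.91 on the early gastrula arrays and 5.47 to 5.51 on those of the later stages. A fall of a probe set between early and mid-gastrula is therefore given beside the median change of all probe sets. The labels were checked on cyp26a1. The bright cyp26a1.S probe set (Xl2.456.1.S1_at) went against the labels. At early gastrula it read 13.72 to 13.88 in the labelled control and 8.48 to 9.31 in the arrays labelled RA-depleted, a difference of -4.79. The difference was -5.34 and -4.14 at the later stages. The cyp26a1.L probe set differed the other way, by 1.82, 1.99 and 1.53, and so did a dimmer cyp26a1.S probe set (Xl2.50113.2.A1_a_at), by 0.72, 1.39 and 1.38, so the cyp26a1.S probe sets disagree. Which part of the injected mRNA these probe sets read was not analysed here, and directions between the arms below follow the labels as they stand and would turn if the labels were exchanged. The labelled tissue was checked on marker lists in the early gastrula arrays labelled control. Above the highest array median of that stage lay 20 of 27 lateral and ventral mesoderm genes, 19 of 20 endoderm genes, 15 of 17 organizer genes, 6 of 14 neural genes and 9 of 25 epidermis genes. The mesoderm genes wnt8a.L (12.67) and tbxt.S (12.26) were bright, and so were osr1.L (9.38) of the kidney field and the endoderm gene sox17a.L (11.46), while hand1.L (5.03), pax8.L (4.28) and foxf1.L (3.62) were dim. The other lists were mixed as well, with sox3.S at 10.82 and ncam1.S at 3.55 among neural genes, and krt18.1.L at 12.06 and krt12.2.L at 2.88 among epidermis genes. In such bulk samples fewer cells of a type and less RNA per cell cannot be told apart.

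All 8 genes were bright at early gastrula and fell at each later stage in both arms, and none was called between the arms at any stage. Calls between the arms were rare over all probe sets as well, at 0.00308%, 0.0185% and 0.425% for the 3 stages. The first of the family, mix1, is the founding activin-response gene. For mix1.L, the early gastrula values were 11.35, 11.08 and 11.09 on arrays 1, 2 and 3 of the labelled control and 11.38, 11.21 and 11.37 in the arm labelled RA-depleted. At mid-gastrula they were 8.17, 8.83 and 8.37 against 8.35, 8.49 and 8.57. At early neurula they were 5.44, 5.52 and 5.21 against 4.91, 5.27 and 4.92. The stages did not overlap on any array, while the arms overlapped at all 3 stages. Its homeolog mix1.S read 12.04, 11.46 and 11.50 against 12.05, 11.46 and 11.69 at early gastrula. Its mid-gastrula values were 8.60, 8.89 and 8.50 against 8.44, 8.52 and 8.60, and its early neurula values 4.06, 4.17 and 3.94 against 4.01, 3.96 and 3.61. For this gene, too, the stages stood apart and the arms overlapped. Over all probe sets, 34.1% fell without overlap of the stages at the first step and 23.5% at the second. The share with overlapping arms was not counted.

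Mixer, the Smad2 partner that promotes endoderm, followed the same course. For mixer.L the early gastrula values were 11.60, 11.31 and 11.77 in the labelled control and 11.39, 10.92 and 11.74 in the arm labelled RA-depleted. The mid-gastrula values were 9.47, 9.19 and 9.80 against 9.36, 8.75 and 9.58, and the early neurula values 5.31, 5.82 and 5.76 against 5.44, 5.70 and 5.88. The arms overlapped at each stage. For mixer.S the early gastrula values were 12.41, 11.93 and 12.45 against 12.25, 11.56 and 12.32. Those of mid-gastrula were 9.47, 9.50 and 9.53 against 9.20, 8.93 and 9.21, and those of the early neurula 4.55, 4.66 and 4.60 against 4.43, 4.67 and 4.34. At mid-gastrula the arrays labelled RA-depleted all lay below those labelled control, and at the other stages the arms overlapped. The share of all probe sets without overlap between the arms was not counted, so this cannot be called particular to mixer.S.

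Among the Bix genes, bix1.2.S, whose product is the Smad2 partner milk, fell furthest by mid-gastrula. Its early gastrula values were 9.91, 8.95 and 9.42 in the labelled control and 9.91, 9.10 and 9.75 in the arm labelled RA-depleted. The mid-gastrula values were 4.90, 5.31 and 4.85 against 4.79, 5.29 and 5.25, and the early neurula values 3.17, 3.19 and 3.38 against 3.22, 3.11 and 3.22. On the arrays labelled control, bix1.2.S went from percentiles 83.7 to 91.5 of all tested probe sets at early gastrula to percentiles 42.5 to 48.0 and then 4.46 to 10.2. The T-box target bix1.1.L read 10.40, 9.77 and 10.24 against 10.33, 10.13 and 10.42 at early gastrula, then 7.85, 8.25 and 8.28 against 7.59, 8.04 and 8.12, then 3.93, 4.44 and 4.08 against 3.68, 3.99 and 3.84. For bix1.3.L the values were 10.85, 10.34 and 10.60 against 10.80, 10.47 and 10.69, then 8.50, 8.89 and 8.73 against 8.71, 8.82 and 8.79, then 5.69, 6.25 and 5.85 against 5.21, 6.05 and 6.06. For bix1.3.S they were 10.98, 10.42 and 10.89 against 10.82, 10.31 and 10.91, then 7.12, 7.58 and 8.15 against 6.99, 7.34 and 7.95, then 4.14, 4.02 and 4.35 against 3.93, 4.02 and 4.47. The stages stood apart for each of the 4 Bix genes, beside 34.1% (first step) and 23.5% (second step) of all probe sets with such falls. The arms overlapped at every stage, and the share of all probe sets with such overlap was not counted. At early neurula several of these values lie near the low end of the array, so falls that end there are read as lower limits.

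**Figure D1:**
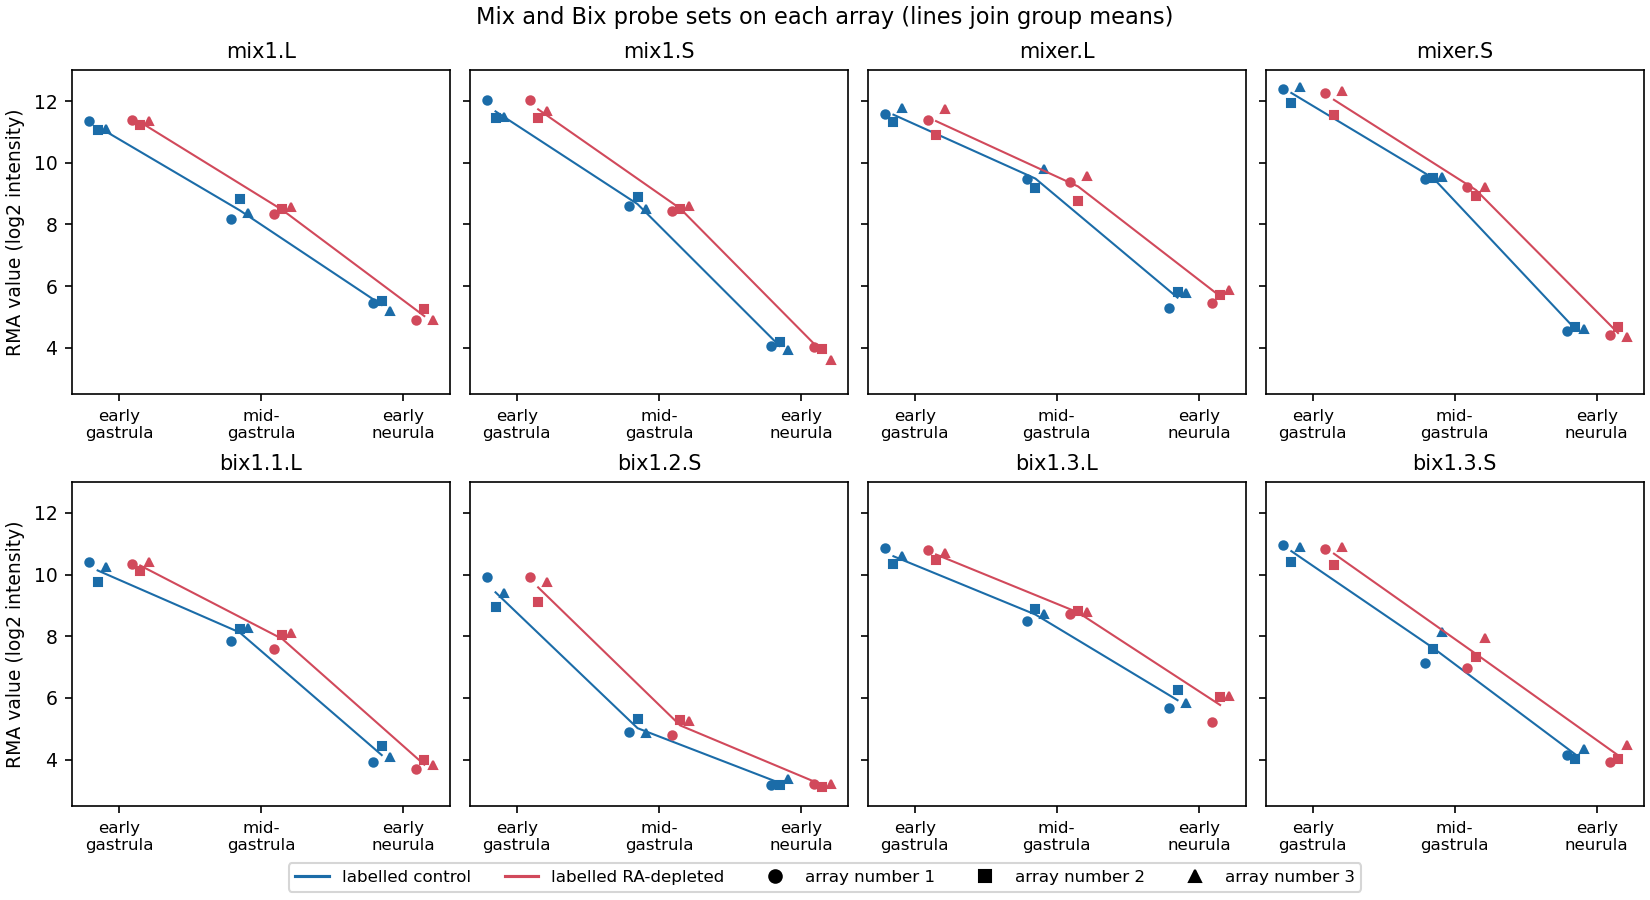
RMA log2 value (y axis) of each of the 8 probe sets at early gastrula, mid-gastrula and early neurula (x axis), with 1 point for each of the 18 arrays, marked by array number, and lines joining the group means of the labelled control (blue) and the arm labelled RA-depleted (red). Every gene falls at both steps in both arms, and bix1.2.S has made most of its fall by mid-gastrula, from 9.43 to 5.02 in the labelled control.

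The first step asked how far the genes fell between early and mid-gastrula. In the labelled control all 8 fell, with log2 changes from -1.89 to -4.40 and a median of -2.74 beside -0.19 over all probe sets. The milk gene bix1.2.S fell by 4.40 (SE 0.23), which is 21.2-fold (adjusted p = 2.28e-09, limma), and only 2 of the 32475 tested probe sets, itself included, fell as far. Next came bix1.3.S, which fell by 3.14 (SE 0.27, adjusted p = 2.81e-07), and mix1.S, which fell by 3.01 (SE 0.17, adjusted p = 4.55e-09). The falls of mixer.S and mix1.L were 6.80-fold and 6.56-fold. Those of mixer.L, bix1.1.L and bix1.3.L were 4.21-fold, 4.03-fold and 3.71-fold, with adjusted p-values of 5.28e-06, 4.89e-07 and 2.69e-06. A fall at an adjusted p under 0.05 was found for 38.2% of all probe sets in this comparison, so a called fall was common on this array. Among explants labelled RA-depleted, where 38.1% of probe sets were called lower, all 8 fell as well, with log2 changes from -1.88 (bix1.3.L) to -4.48 (bix1.2.S). The bix1.2.S fall was the lowest log2 change of all tested probe sets in that arm. All 6 mid-gastrula arrays lay below all 6 early gastrula arrays for 8 of 8 genes, as they did for 34.1% of all probe sets.

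Between mid-gastrula and early neurula all 8 genes fell again in both arms. In the labelled control the changes ran from -1.77 to -4.90 with a median of -3.65, beside 0.07 over all probe sets. The endoderm regulator mixer.S fell by 4.90 (SE 0.18), which is 29.8-fold (adjusted p = 2.04e-11, limma), and 4 probe sets, itself included, fell as far. Its neighbour mix1.S fell by 4.60, or 24.2-fold (adjusted p = 2.79e-11). The falls were 15.7-fold for bix1.1.L, 14.5-fold for mixer.L, 10.9-fold for bix1.3.S, 8.40-fold for mix1.L and 6.85-fold for bix1.3.L. Early neurula means in the labelled control were 4.06 (mix1.S), 4.15 (bix1.1.L), 4.17 (bix1.3.S) and 4.60 (mixer.S), so these falls may be lower limits too. For bix1.2.S, which had started near the middle of the array and ended between percentiles 4.46 and 10.2, the fall of at least 3.42-fold (adjusted p = 9.51e-06) is a lower limit, and its size is not ranked with the others. Falls were called for 26.1% of all probe sets in this arm and for 26.4% in the arm labelled RA-depleted, where the log2 changes ran from -1.93 (bix1.2.S) to -4.65 (mix1.S). All 6 early neurula arrays lay below all 6 mid-gastrula arrays for 8 of 8 genes, against 23.5% of all probe sets. Both falls reached at least 1 on the log2 scale with an adjusted p under 0.05 in the labelled control for all 8 genes, which holds for 2.71% of probe sets and, with 1 probe set per gene, for 423 of 11303 genes (3.74%).

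The change over the second interval was then set against that over the first within each gene, as the mean of both arms. The collection times differ in length and temperature and are not paired with the stages in the labels, so this compares sizes and not rates. The difference, second change minus first, was -1.92 (SE 0.22) for mixer.S, -1.83 (SE 0.23) for bix1.1.L, -1.61 (SE 0.30) for mixer.L, -1.52 (SE 0.21) for mix1.S and -1.003 (SE 0.25) for bix1.3.L, with adjusted p-values of 0.0035 or less, so the second fall was the larger. For mix1.L it was -0.48 (SE 0.19, adjusted p = 0.0387), a call that was lost with array weights (adjusted p = 0.0711), with pairs of arrays as a random block (adjusted p = 0.135), and on leaving out any of 9 single arrays. With control array 2 of mid-gastrula left out it was -0.29. For bix1.2.S the difference was 2.59 (SE 0.28), but its mid-gastrula mean of 5.02 left no room on the array for a second fall as large as the first, so its falls are not compared. The second fall of bix1.3.S, to a mean of 4.17 in the labelled control, may also be a lower limit. For bix1.3.S a difference was not called (-0.17, 95% interval -0.89 to 0.55, adjusted p = 0.691), which does not show that its falls were equal. Over all probe sets such a difference was called below 0 for 16.4% and above 0 for 41.8%. These shares are not limited to probe sets that fell in both intervals.

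**Figure D2:**
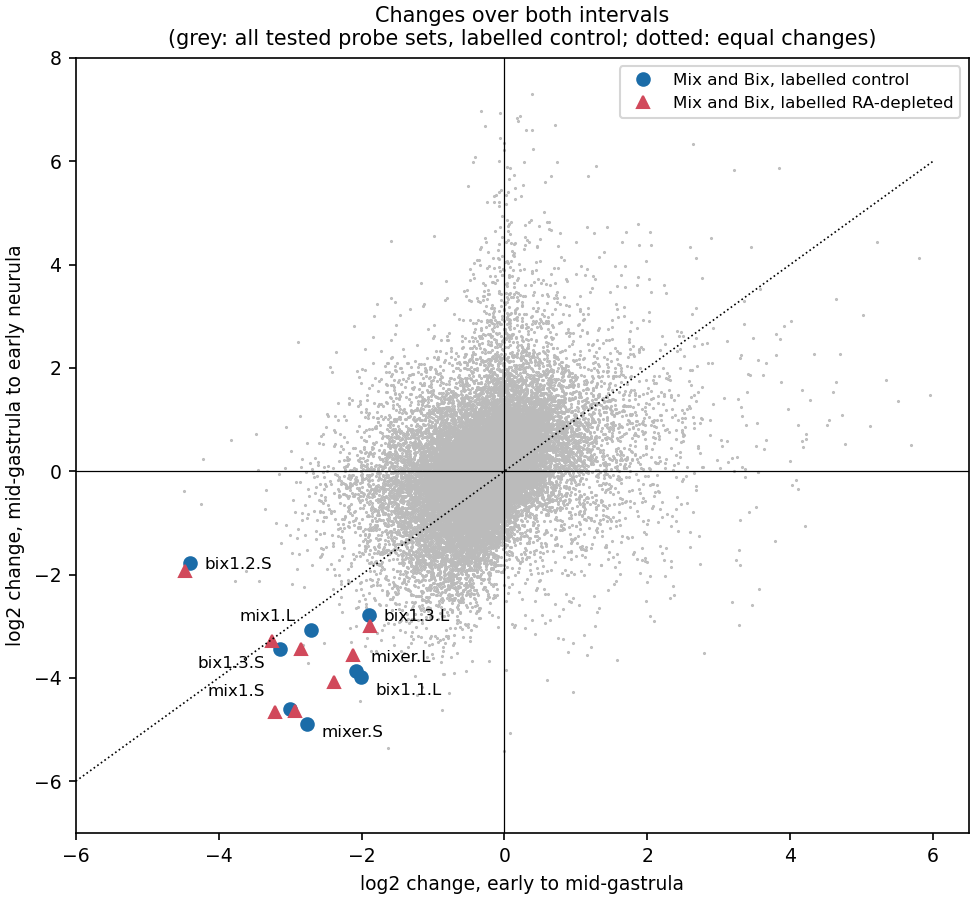
Log2 change from mid-gastrula to early neurula (y axis) against that from early to mid-gastrula (x axis) for all 32475 tested probe sets in the labelled control (grey) and for the 8 Mix and Bix genes in the labelled control (blue circles, with names) and the arm labelled RA-depleted (red triangles); the dotted line marks equal changes. The 8 genes lie in the lower left, and bix1.2.S stands at -4.40 and -1.77, the second change being limited by the low end of the array.

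The 8 genes lie in 2 clusters, 1 in each subgenome, so the genes beside them show whether the falls were shared by their neighbours. In the reference gene table, which was used for gene order alone, the L cluster runs bix1.3.L, bix1.1.L, mix1.L and mixer.L, and the S cluster mixer.S, mix1.S, bix1.1.S, bix1.2.S and bix1.3.S. No probe set carried the symbol bix1.1.S, and the gene was not analysed here. Directly beside the L cluster, acbd3.L changed by -0.58 in the first interval (SE 0.15, adjusted p = 0.0048) and by 0.33 in the second (adjusted p = 0.0710). On the other side the changes of lin9.L were -1.47 and -0.58 (adjusted p = 3.87e-07 and 0.0015), while parp1.L, next to it, rose by 1.23 and 1.39. Farther out, lefty.L, which encodes a Nodal inhibitor, fell by 4.48 in the first interval, and its second change was -0.38 (adjusted p = 0.273). Of the measured genes around the S cluster, coq8a.S changed by -0.30 and -0.07 (adjusted p = 0.261 and 0.806), h3-5.L rose by 0.31 and 0.41, and sde2.S fell, with a change of -0.55 in each interval. None of these 7 neighbours fell by at least 1 on the log2 scale in both intervals, as all 8 cluster genes with a probe set did. Called falls of that size in both intervals were found for only 3.74% of all genes. The mid-gastrula mean of lefty.L was 4.56 in the labelled control, which left little room on the array for a second fall. Its second change is therefore not compared with those of the cluster genes.

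**Figure D3:**
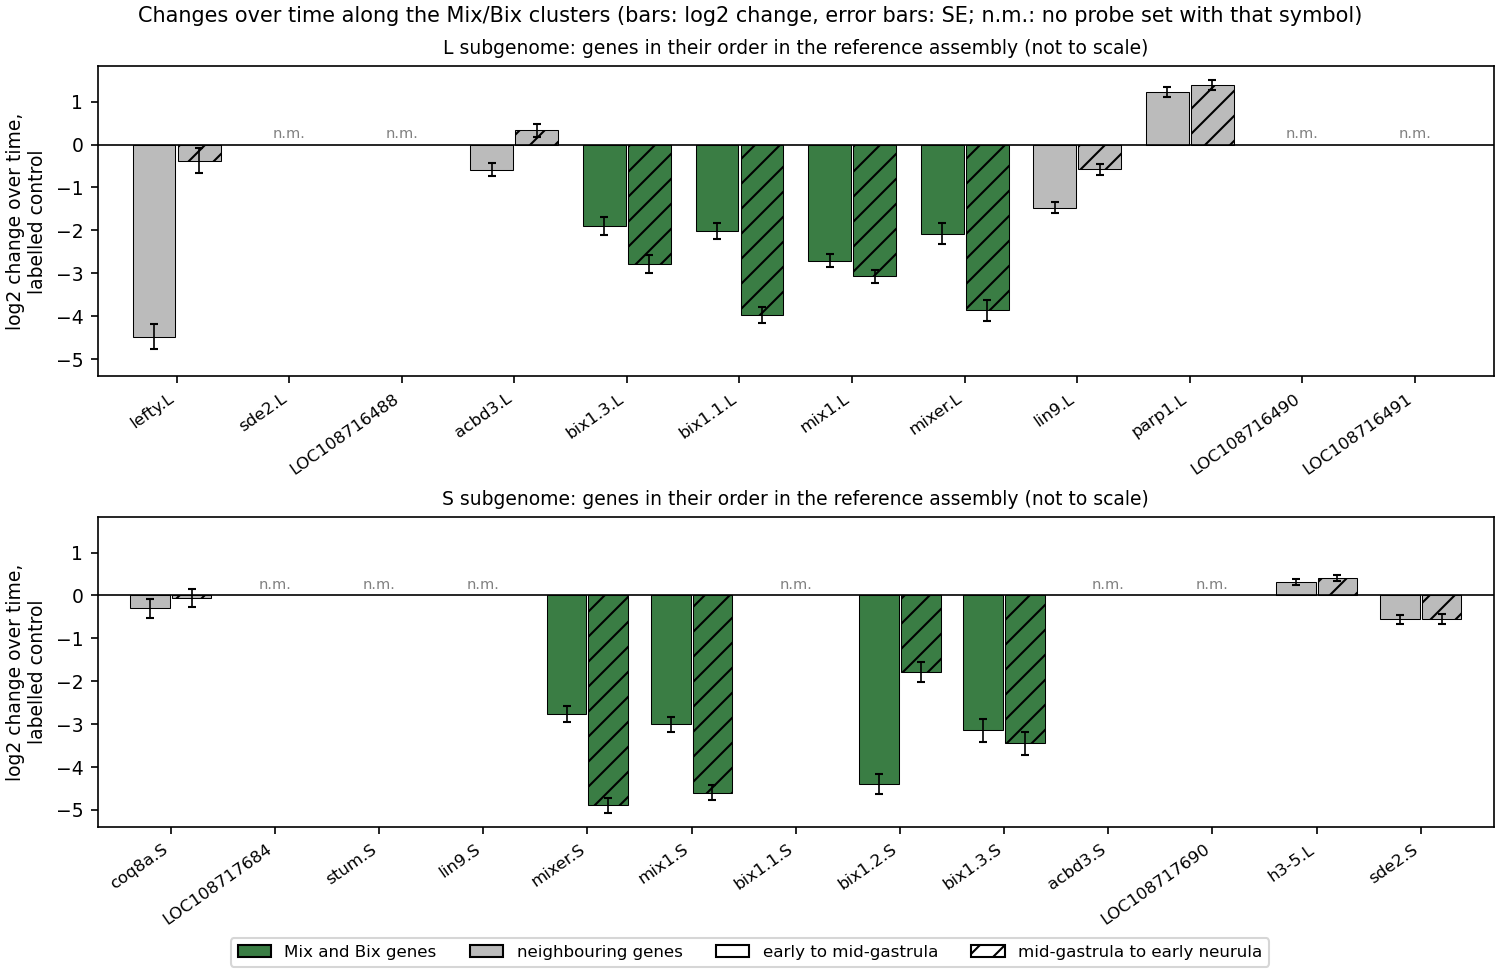
Log2 change in the labelled control from early to mid-gastrula (plain bars) and from mid-gastrula to early neurula (hatched bars), with its SE, for the Mix and Bix genes (green) and the genes beside them (grey) in their order along each subgenome, not to scale. Green bars all point down in both intervals, and the grey bars are smaller except the first bar of lefty.L (-4.48).

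The genes upstream and downstream of the family were read from lists written with earlier results of these data known. In the list of Nodal and activin signalling, 25 genes were measured, and in the labelled control 16 fell and 2 rose between early and mid-gastrula, with a median of -0.97, beside 38.2% of all probe sets called lower and 11.2% called higher. The Nodal inhibitors lefty.L and lefty.S fell, with changes of -4.48 and -4.24 (adjusted p = 1.39e-08 and 2.55e-08), and the ligand nodal2.L fell by 3.61 (adjusted p = 3.71e-08). In the second interval 8 of the 25 fell and 7 rose, near the 26.1% and 33.2% of all probe sets, among them the co-receptor genes tdgf1.3.L and tdgf1.1.L, with changes of -2.40 and -2.28, and tdgf1.2.S, which rose by 1.997. Several genes of the list were already low at mid-gastrula in the labelled control, such as lefty.L (4.56), nodal6.L (3.53) and nodal3.2.L (3.09). A second fall of such genes may not show, so the count of 8 may be too low. Called falls of at least 1 in both intervals were found for 6 of 25, beside 3.74% of all genes: gdf1.S, nodal1.L, nodal2.L, nodal3.1.L, tdgf1.1.L and tdgf1.3.L.

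Of 35 measured mesendoderm transcription factor genes, 18 fell and 4 rose in the first interval (median -0.61), and 16 fell and 2 rose in the second (median -1.01, beside 0.07 over all probe sets). Over all probe sets 38.2% were called lower and 11.2% higher in the first interval, and 26.1% and 33.2% in the second. Both vegt copies fell in both intervals, with changes of -1.04 and -2.83 for vegt.L and of -1.17 and -2.12 for vegt.S. Goosecoid, a target of Mixer with Smad2, fell in the first interval, with changes of -2.79 (gsc.L) and -2.31 (gsc.S). In the second, the T-box genes eomes.S and eomes.L changed by -5.35 and -3.93, and the endoderm factor gene gata4.S by -3.31. By contrast foxa2.L and tbx6.L rose by 1.58 and 1.56 in the first interval. Called falls of at least 1 in both intervals were found for 6 of these 35 genes, beside 3.74% of all genes: eomes.S, gata4.S, gsc.S, lhx1.L, vegt.L and vegt.S. Of 20 endoderm genes, 8 fell and 6 rose in the first interval and 7 fell and 2 rose in the second. The falls thus lay near the 38.2% and 26.1% over all probe sets. Called falls of at least 1 in both intervals were found for gata4.S alone.

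The arms were compared at each stage to ask whether the family responded to the injected cyp26. No Mix or Bix gene was called: the count was 0 of 8 at each of the 3 stages (limma, adjusted p under 0.05), where 0.00308% (early gastrula), 0.0185% (mid-gastrula) and 0.425% (early neurula) of all probe sets were called. At an unadjusted p under 0.05 the counts were 0, 1 and 1 of 8, beside 1.52%, 2.28% and 5.62% of all probe sets. The fit with the replicate number as a block gave the same 0, 1 and 1, beside 3.04%, 4.97% and 10% of all probe sets. With the 9 same-numbered pairs as a block the unadjusted counts were 2, 4 and 2, beside 7.02%, 10.7% and 17.6%, and 0 of 8 were called at each stage, beside 0.037%, 0.188% and 4.33%. At early gastrula the differences, labelled RA-depleted minus labelled control, ran from -0.22 (mixer.S) to 0.16 (bix1.2.S), at mid-gastrula from -0.38 (mixer.S) to 0.09 (bix1.2.S), and at early neurula from -0.36 (mix1.L) to 0.04 (mixer.L). Every 95% interval of the fit without pairs lay between -0.78 and 0.66, so a 2-fold difference in array value at a stage lies outside all of them. At early neurula several genes, bix1.2.S most of all, lay near the low end of the array. A difference in RNA may not show in full there, so the intervals of that stage do not bound it.

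**Figure D4:**
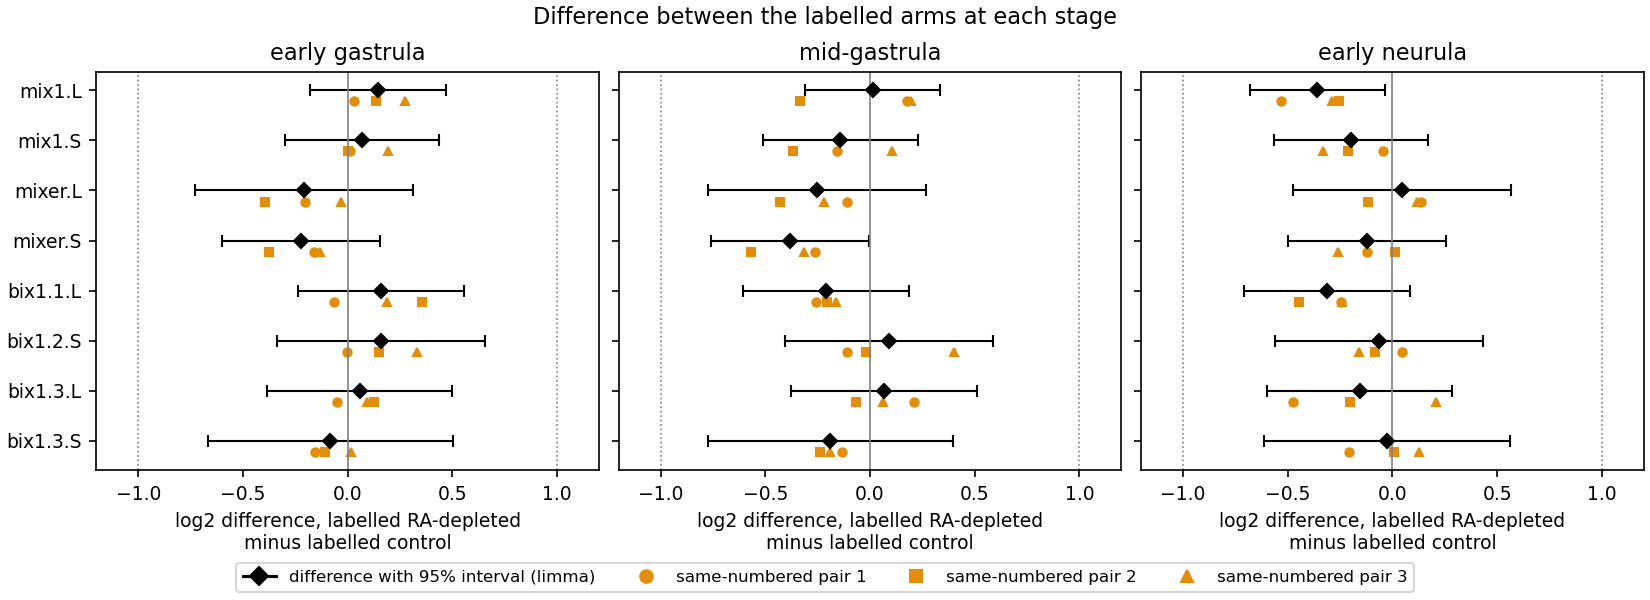
Log2 difference between the arms, labelled RA-depleted minus labelled control (x axis), for each of the 8 genes at each stage, as the limma estimate with its 95% interval from the fit without pairs (black) and as the 3 differences of same-numbered arrays (orange). All intervals stay inside the dotted lines at -1 and 1, and those of mixer.S at mid-gastrula and mix1.L at early neurula end just below 0.

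The lowest of these differences at early and mid-gastrula were those of the mixer genes. At mid-gastrula mixer.S was 9.50 ± 0.03 in the labelled control and 9.12 ± 0.16 in the arm labelled RA-depleted (SD, n = 3 each), a difference of -0.38 (SE 0.18, 95% interval -0.76 to -0.004, adjusted p = 1.00, limma). With the 9 pairs as a block its SE was 0.08 (adjusted p = 0.107, limma), so it was not called there either. The 3 same-numbered differences at that stage were -0.26, -0.57 and -0.31, those at early gastrula -0.16, -0.37 and -0.13, and those at early neurula -0.12, 0.01 and -0.26. It was thus lower in the arm labelled RA-depleted in 8 of 9 pairs, mixer.L and bix1.1.L in 7 of 9, bix1.3.S in 6, mix1.S and bix1.2.S in 5, and mix1.L and bix1.3.L in 4. The share of all probe sets with such counts of pairs was not counted, so they cannot be called particular to these genes. Averaged over the stages, the mixer.S difference was -0.24 (SE 0.10, adjusted p = 1.00), or 1.18-fold, and it was called with the 9 pairs as a block (SE 0.05, adjusted p = 0.0203), under which 2.85% of all probe sets were called, but not with the replicate number as a block (adjusted p = 0.444). Without a block that average was called for 0 of 8 genes, beside 0.0862% of all probe sets, and for mixer.L it was -0.14 (SE 0.14). Of 20 endoderm genes, 18 lay below 0 in the comparison of the arms at early gastrula (median -0.26) and 17 at mid-gastrula (median -0.20). At early neurula 13 did (median -0.07), and 0 were called at any stage. Over all probe sets 50.2%, 49.5% and 51.9% lay below 0 at the 3 stages. For the Nodal list these counts were 7, 3 and 16 of 25, for the mesendoderm list 20, 17 and 24 of 35. They were 14, 18 and 19 of 27 lateral and ventral mesoderm genes, and 7, 6 and 10 of 17 organizer genes. Of neural and epidermis genes, 3, 5 and 8 of 14 and 8, 7 and 11 of 25 lay below 0. The mean log2 value over the endoderm genes was 9.44 to 9.70 in the labelled control and 9.17 to 9.49 in the other arm at mid-gastrula. The part of this in the mixer.S values was not tested.

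The difference between the arms was also compared between stages, where no Mix or Bix gene was called. The difference at mid-gastrula minus that at early gastrula was called for 0% of all probe sets, early neurula minus mid-gastrula for 0.0585%, and early neurula minus early gastrula for 0.0739%. In the fit without pairs, unadjusted p-values fell under 0.05 for 0, 0 and 1 of the 8 genes. The shares of all probe sets were 1.21%, 2.85% and 3.31%. With the pairs as a block these counts were 1, 3 and 2 of the 8 genes. The share of all probe sets was not counted for them, so they cannot be called particular to these genes. At an adjusted p under 0.05 the fit with pairs called 0 of the 8 genes in each comparison, beside 0, 299 and 393 probe sets. The 1 gene of the fit without pairs was mix1.L, whose difference changed from 0.15 (SE 0.15) at early gastrula to -0.36 (SE 0.15, adjusted p = 0.765) at early neurula. That change was -0.50 (SE 0.21, adjusted p = 1.00, and 0.156 with the pairs). Its homeolog mix1.S changed by -0.26 (SE 0.24). With the pairs the lowest adjusted p of this change was that of bix1.1.L (-0.47, SE 0.11, adjusted p = 0.087, limma). At early neurula itself the paired fit gave adjusted p-values of 0.0564 for bix1.1.L (-0.31) and 0.0856 for mix1.L (limma). Among the other genes, tdgf1.2.S of the Nodal list was higher in the arm labelled RA-depleted at mid-gastrula by 0.95 and at early neurula by 1.12 (adjusted p = 0.0168 and 6.20e-04). In the mesendoderm list at early neurula, lhx1.L was higher by 1.998 (adjusted p = 0.0023) and eomes.L differed by -0.78 (adjusted p = 0.0373), and 33 of 35 genes were not called.

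Within a group the genes deviated together on some arrays. At early gastrula, array 2 was the lowest of its group for 8 of 8 genes in both arms, at a mean of -0.29 in the labelled control and -0.31 in the arm labelled RA-depleted from the group mean, while the mean over all tested probe sets deviated by -0.007 and -0.003. At mid-gastrula array 1 was lowest for 5 and 6 of the genes, and at early neurula for 5 and 5. The share of all probe sets with the same array lowest was not counted. The mean over all probe sets was small on every array, so it does not show whether other genes deviated likewise. Deviations of same-numbered early gastrula arrays correlated across all probe sets at 0.83 to 0.84, so shared deviations were not confined to these genes. With both early gastrula arrays numbered 2 left out, all 8 genes were still called lower at mid-gastrula in each arm, and the mix1.L difference between the falls was -0.43 (adjusted p = 0.0892).

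**Figure D5:**
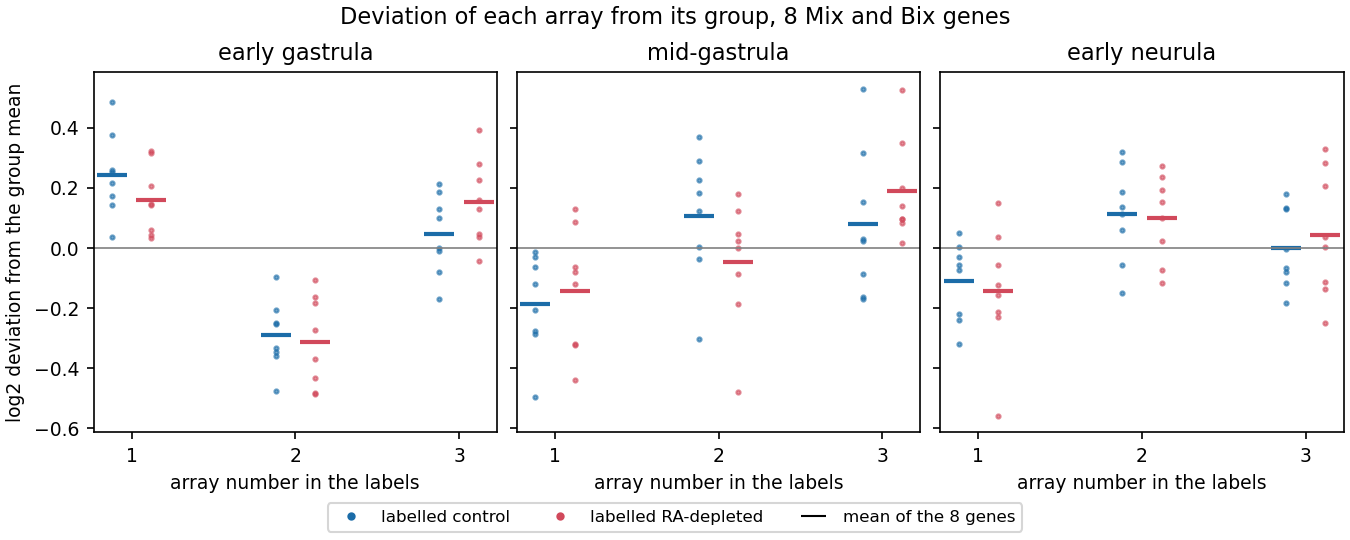
Log2 deviation of each array from the mean of its group (y axis) by array number (x axis), at each stage, for the 8 genes (points) and their mean (bars), in the labelled control (blue) and the arm labelled RA-depleted (red). Both arrays numbered 2 at early gastrula sit below 0 for every gene, at means of -0.29 and -0.31.

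Genes of like pattern were sought among 5462 genes whose group means spanned at least 1 on the log2 scale. The Mix and Bix genes were left out of that search. The genes most like each member were then named by Pearson correlation over the 18 arrays. They were bves.L for mix1.L (r = 0.997), mcm3.L for mix1.S (0.998), calhm4.L for mixer.L (0.996), znf276.S for mixer.S (0.997), acot12.L for bix1.1.L (0.999), cdk5r2.S for bix1.2.S (0.997), smn1.S for bix1.3.L (0.998) and MGC83948 for bix1.3.S (0.997). These values reflect the shared change over the stages. An r of at least 0.99 was reached by 29 genes for bix1.2.S and by 63 to 168 genes for each of the other 7. No other Mix or Bix gene reached it with bix1.2.S. Among the 28 pairs of Mix and Bix genes r ran from 0.915 to 0.997, and the 7 pairs with bix1.2.S had the lowest, from 0.915 to 0.964. The r of mixer.L with mixer.S (0.9964) was slightly above that with calhm4.L (0.9959). Likewise mixer.S gave 0.99723 with mix1.S and 0.99717 with znf276.S. For the other members the gene named above was closer than any Mix or Bix gene.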

How the data were processed

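RNA of 18 explant samples (6 groups of 3) was labelled from 6 µg of total RNA each and read on Affymetrix arrays for Xenopus laevis. The deposited table holds RMA values on the log2 scale, and the submitters' processing notes name RMA and affy as the authors' tools. Their versions, and which arrays were normalized with which, are not given in the sources used here. Samples were grouped by the labels. Of 32635 probe sets, 160 controls were left out and 32475 tested. The number of arrays limits the precision.

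The Mix and Bix genes and all gene lists were chosen with earlier results of these data known. A linear model with a mean per group was fitted to all arrays in R 4.3.3 by lmFit, contrasts.fit and eBayes of limma 3.58.1. Calls were made at a Benjamini-Hochberg adjusted p under 0.05 over all tested probe sets, and SE is limma's moderated standard error. The fit without pairs was also run on simulated arrays. Their noise was drawn independently for each array, so the pairing of same-numbered arrays was not simulated. Plots were made in Python 3.11.15 (matplotlib 3.10.9). Every gene found by the rule was named. Each list was read through 1 probe set per gene (the brightest), naming up to 3 called genes of largest change per direction. Each Mix and Bix gene was read through its most correlated genes outside the family. Neighbouring genes, genes with falls in both intervals and tissue markers were named after their values were seen, and so were 3 comparisons: the second fall minus the first, the mean difference between the arms, and early neurula minus early gastrula. Gene order was taken from a RefSeq gene table (Xenopus_laevis_v10.1 assembly), and sequences and coordinates were not used.

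Whether equal replicate numbers mark paired samples was checked on deviations from the group means. Same-numbered arrays of the arms correlated across probe sets at 0.83 to 0.84 (early gastrula), 0.73 to 0.78 (mid-gastrula) and 0.64 to 0.74 (early neurula), and other numbers at -0.48 to -0.11, so the numbers pair the samples.

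Alternatives were the number, or the 9 pairs, as a block, pairs as a random block, repeated quantile normalization, median centring, a dim filter (6 or more in log2 on 3 or more arrays), a trended robust variance, array weights, only the compared arrays, no probe sets that can match several transcripts, and each array left out.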

Additional observations from a re-analysis of the deposited data

Results flagged for a closer look

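The mix1 homeologs differed between the arms in opposite directions at the first and last stage in every same-numbered pair. For mix1.L the difference, labelled RA-depleted minus labelled control, was 0.15 at early gastrula, above 0 in 3 of 3 pairs, and -0.36 at early neurula, below 0 in 3 of 3 pairs. For mix1.S it was 0.067 and -0.20 with the same signs in 3 of 3 pairs each, although the second pair at early gastrula read 11.46 in both arms. With single arrays left out, but not their same-numbered partners, the early gastrula difference of mix1.S ran from -0.091 to 0.26. The share of all probe sets with such a pattern of signs was not counted, so it cannot be called particular to these genes. The change of the difference was tested with limma across all probe sets and was not called for either gene (-0.50 with SE 0.21 and -0.26 with SE 0.24, both with an adjusted p of 1.00). With the 9 pairs as a block the adjusted p was 0.156 for mix1.L and 0.423 for mix1.S.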

How the results depend on the processing

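The falls over time kept their direction and their call in 496 of 496 results under the alternatives, with a largest adjusted p of 0.0010, and with the number as a replicate block the largest was 8.46e-06. Differences between the arms at a stage, none of which was called, kept their sign in 340 of 368. The 9-pair replicate block raised the count of called genes for the mean of the 3 stages from 0 to 1, which was mixer.S, and no block fit changed another call except that of mix1.L under the random block, given with its comparison. The mix1.L difference at mid-gastrula turned to -0.019 with array weights and to -0.0019 with median centring. The bix1.3.S difference between its falls turned to 0.010 without both early gastrula arrays numbered 2. With single arrays left out, these uncalled differences between the arms changed sign. The same-numbered partner of the array stayed in, so the pairing was broken in these fits. All 3 pairs had 1 sign for mixer.L, mixer.S and mix1.S at early gastrula and for bix1.3.S at mid-gastrula. The other differences listed here had pairs of both signs. At early gastrula they ran from -0.021 to 0.29 (bix1.1.L), -0.078 to 0.40 (bix1.2.S), -0.070 to 0.18 (bix1.3.L), -0.25 to 0.10 (bix1.3.S), -0.091 to 0.26 (mix1.S), -0.41 to 0.0085 (mixer.L) and -0.39 to 0.020 (mixer.S). At mid-gastrula the ranges were -0.00029 to 0.25 (bix1.2.S), -0.035 to 0.16 (bix1.3.L), -0.45 to 0.076 (bix1.3.S) and -0.13 to 0.20 (mix1.L). At early neurula they were -0.30 to 0.12 (bix1.3.L), -0.19 to 0.080 (bix1.3.S) and -0.12 to 0.16 (mixer.L). The bix1.3.S difference between its falls ran from -0.42 to 0.097. The cause was not tested. Of the 5 genes most like each member, 0 to 3 stayed under repeated quantile normalization or when the 6 group means were used. Levels near the low end of the arrays at early neurula limit the size of the second falls that can be read, most of all for bix1.2.S.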

Other observations

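The Mix and Bix genes also varied together among arrays of the same group. After group means were removed, Pearson's r over the 18 arrays was above 0 for 26 of 28 pairs of these genes. It ran from -0.07, between mix1.L and mixer.L, to 0.74, between mix1.S and bix1.2.S. The mixer homeologs gave 0.69 and the mix1 homeologs 0.66. The points of all pairs share the same arrays, and the low early gastrula arrays numbered 2 are among them, so these values are a description of these arrays. The share of other gene pairs with r above 0 was not counted, so this cannot be called particular to the Mix and Bix genes.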
